A study of Rattus norvegicus with 6 samples.

Results

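The miR-29 family was followed across 6 small RNA libraries of RSC96, a rat Schwann cell line. Its members were taken by hairpin name. All entries of rno-mir-29a, rno-mir-29b and rno-mir-29c were kept, whatever copy number the name ended in, and this selected 6 of the 821 hairpin names listed in the data. They held 118 of 9522 distinct sequences and 24706 of 3983041 reads. Single libraries listed 64, 69 and 66 of these sequences in high glucose and 35, 31 and 28 in low glucose. 3 libraries came from cells treated with high glucose for 48 h and 3 from control cells kept for 48 h in low glucose. The labels state no glucose concentration, and no other treatment or genetic change is labelled. The study's stated question was which miRNAs differ between the treatments. The series title speaks of exosomes, whereas the labels give total RNA of the line with nerve as the tissue, and the extraction text describes retinas. Whether RNA came from whole cells or from vesicles is therefore not settled by the labels. In either case fewer cells or vesicles of a kind and less RNA in each cannot be told apart.

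miRNAs are cut as short duplexes from a hairpin transcript, first by Drosha and then by Dicer, and 1 strand is loaded into an Argonaute protein. Bases 2 to 8 of the loaded strand, the seed, pair with target mRNAs, so a shift of the first base changes the seed. The miR-29 family is known for repressing mRNAs of extracellular matrix proteins, among them collagens, and it is usually low where tissue scars. Schwann cells, the glia of peripheral nerves, lay down such a matrix as their basal lamina.

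Rat RefSeq sequences of the GRCr8 assembly place the family at 2 loci. Each RefSeq hairpin named below was identical to a hairpin in the data, which is the basis of the coordinates given here. The build behind the deposited data is not given in the sources used here. Further copies of miR-29b and miR-29c listed in the data were not compared, and no coordinates are given for them. Mir29a (chr4:60617955-60618042, minus strand) and Mir29b1 (chr4:60618334-60618414, minus strand) are 291 bases apart. Mir29b2 (chr13:109098831-109098911, plus strand) and Mir29c (chr13:109099359-109099446, plus strand) are 447 bases apart, and both lie within the long noncoding RNA gene LOC102550527. RefSeq also places Mir3556a over Mir29a, Mir3587 over Mir29b1 and Mir3556b over Mir29c, but no read was listed under these names. The mature 3p arms of the family are shown first because the reads were told apart by these letters. Capitals mark the seed, which all of them share.
miR-29a-3p (chr4:60617968-60617989): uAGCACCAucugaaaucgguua
miR-29b-3p (chr4:60618342-60618364 and chr13:109098882-109098904): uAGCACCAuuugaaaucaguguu
miR-29c-3p (chr13:109099412-109099433): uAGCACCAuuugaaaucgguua

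The hairpin of miR-29a is shown because most results below turn on where its 3p reads begin and end. Capitals mark the annotated 3p arm, bases 54 to 75 of the hairpin's 88. The base before it is C, as in each of the other RefSeq hairpins of the family.
Mir29a hairpin: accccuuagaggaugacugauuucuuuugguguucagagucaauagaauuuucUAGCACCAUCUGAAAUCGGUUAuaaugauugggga

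The reads themselves are shown next, because the most frequent one differed between the groups. In each low glucose library it was the annotated arm of 22 nt, and in each high glucose library it was a form that began 1 base upstream of it, on hairpin base 53. Capitals mark bases 2 to 8 of each read.
annotated start, 22 nt: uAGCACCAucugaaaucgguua
annotated start, 21 nt: uAGCACCAucugaaaucgguu
annotated start, 16 nt: uAGCACCAucugaaau
1 base upstream, 22 nt: cUAGCACCaucugaaaucgguu
1 base upstream, 24 nt: cUAGCACCaucugaaaucgguuau
1 base upstream, 17 nt: cUAGCACCaucugaaau
shared by miR-29b and miR-29c, 17 nt: uAGCACCAuuugaaauc

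Of 693 rat mature miRNA names in RefSeq, 3 carried the annotated seed AGCACCA, and these were miR-29a-3p, miR-29b-3p and miR-29c-3p. The seed of the upstream form, UAGCACC, was carried by 0 of the 693. A match of letters describes the sequences and shows no target.

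Depth differed strongly between the groups. High glucose libraries held 963706, 1278405 and 1354456 listed reads, and low glucose libraries held 123716, 148143 and 114615. Levels are given in CPM, read counts divided by the library's size and set to a common scale, after TMM scaling, which rescales each library by the trimmed mean of its log ratios to the others. Of 296 mature arms tested with edgeR's quasi-likelihood test, 121 were higher and 67 lower in high glucose at a Benjamini-Hochberg adjusted p under 0.05, so that 63.5% of all arms were called. The median log2 fold change of all arms was 0.67 with TMM scaling and 0.10 with upper quartile scaling, which split the calls into 91 higher and 93 lower. Markers of other tissues also differed between the groups. The 4 erythroid miRNAs summed to 762 to 954 CPM in high glucose and 3237 to 6395 in low glucose libraries, with 3 of the 4 listed in each library. The liver miRNA miR-122-5p was at 8509 to 14744 CPM in high glucose and 3002 to 4317 in low glucose libraries. The summed leukocyte, retina, neuron, muscle, endothelial and epithelial markers overlapped between the groups. The retina markers miR-182-5p and miR-96-5p and the neuron marker miR-124-3p were at 0 in every library. The only retina marker that was tested, miR-183-5p, was lower, with a mean CPM of 18.7 in high glucose and of 59.3 in low glucose (log2 fold change -1.63, edgeR adjusted p = 0.0256). The remaining retina marker, miR-211-5p, was not tested and went the other way, with means of 38.7 CPM in high glucose and 4.64 in low glucose. Of the neuron markers, miR-9a-5p averaged 1505 CPM in high glucose and 1476 in low glucose. The untested miR-9a-3p averaged 21.7 CPM in high glucose and 0 in low glucose. The part of these markers in the results below was not tested. The labels do not say whether replicates are separate cultures, and each p-value therefore refers only to the spread among these 6 libraries.

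miR-29a-3p supplied nearly all of the family's reads and was at a slightly lower level in high glucose, a difference that the main test did not call. It had 5956, 8260 and 6888 reads in high glucose libraries, against 1146, 1130 and 875 in low glucose libraries. Scaled to depth, these were 6166, 6747 and 5636 CPM in high glucose and 7979, 7573 and 7837 CPM in low glucose. All 3 high glucose libraries thus lay below all 3 low glucose libraries. The means were 6183 ± 555 CPM in high glucose and 7796 ± 206 in low glucose (mean ± SD, n = 3 per group). The log2 fold change was -0.33 with a standard error of 0.14, and edgeR's adjusted p was 0.0695. Without high glucose replicate 2 the fold change was -0.47 and was called, with an edgeR adjusted p of 0.0212. Relative to the median of all arms, miR-29a-3p stood at -1.0 on the log2 scale with TMM and at -1.02 with upper quartile scaling. With upper quartile scaling the fold change itself was -0.93, which edgeR called lower with an adjusted p of 0.00189, beside 31.4% of all arms called lower. Of the 2 tested members, miR-29a-3p and the sequence shared by miR-29b and miR-29c, edgeR called 0, beside the 63.5% of all arms. At an unadjusted p under 0.05 the count was 1, at a threshold that at least the same 63.5% of all arms pass. DESeq2 also called 1, beside 177 of all 296 arms. It was miR-29a-3p in both cases.

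**Figure D1:**
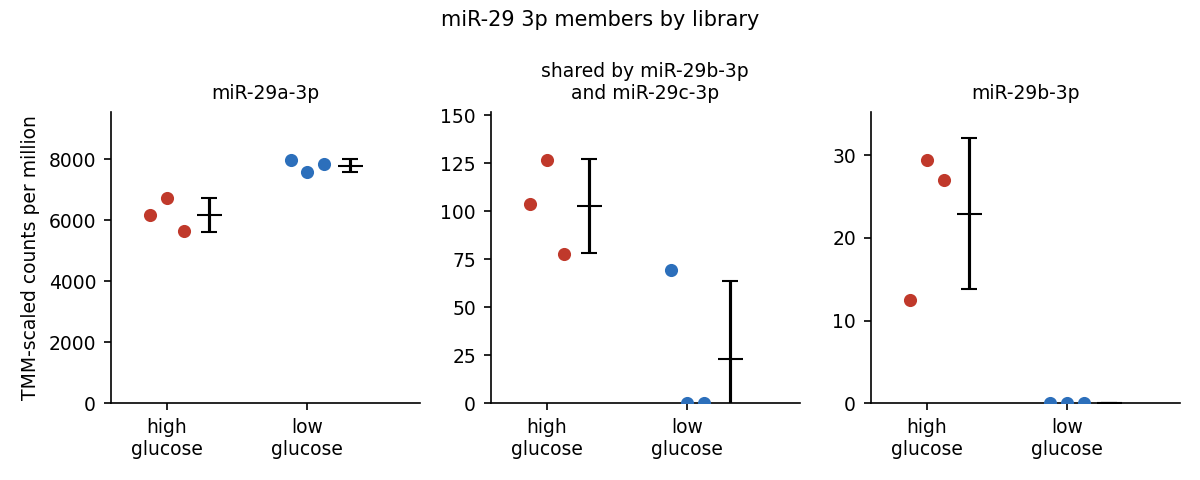
Levels of 3 classes of miR-29 3p reads, in TMM-scaled CPM on the y axis, with high glucose left and low glucose right in each panel. Points are libraries and the bar beside them is the mean ± SD of 3 libraries. The miR-29a-3p panel shows 5636 to 6747 in high glucose and 7573 to 7979 in low glucose, while miR-29b-3p is at 0 in all 3 low glucose libraries.

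miR-29b and miR-29c, which have the same first 17 bases in their 3p arms, were rare in both groups. The 17 nt sequence common to both was listed under 5 hairpin names and is kept apart here as the shared class. It had 100, 155 and 95 reads in high glucose libraries, against 10, 0 and 0 in low glucose libraries. Only low glucose replicate 1 listed it, at 69.6 CPM, below the 77.7 to 127 CPM of the high glucose libraries. The fitted log2 fold change was 2.07 with a standard error of 0.93 and an edgeR adjusted p of 0.0835. That value rests on low glucose replicate 1, since without it the class is listed at 0 in the whole low glucose group. The class was not called with upper quartile scaling either, where the fold change was 1.45 (edgeR adjusted p = 0.239).

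The minimum for a sequence to be listed differed between members. A sequence was listed only from 2 reads when it belonged to 1 hairpin name, as for miR-29a, from 3 reads with 2 names as for miR-29c, from 5 reads with 3 names as for miR-29b, and from 8 reads with 5 names as for the shared class. When every library was thinned to the 114615 reads of the smallest, with these minimums applied again, the shared class had 11, 19 and 0 reads in high glucose libraries and 10, 0 and 0 in low glucose libraries. The groups then overlapped.

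Reads of miR-29b-3p alone were listed in high glucose only. It had 12, 36 and 33 reads in high glucose libraries and 0 in each low glucose library, so no fold is given. They fell into 5 sequences, of which the full 23 nt arm had 0, 21 and 21 reads in high glucose. In 1 of the 5, of 21 nt with 9 reads in high glucose replicate 2, the read began 1 base upstream. The arm had too few counts to enter the test. At equal depth 0 reads of miR-29b-3p were left in any library, so its absence from low glucose is not a difference that this depth can show.

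miR-29c-3p alone was listed with 4 reads of a single 18 nt sequence in high glucose replicate 2, and its full 22 nt arm was at 0 in all 6 libraries. The 5p arms, which are the strand that is mostly discarded, were nearly absent. miR-29b-5p had 2 reads, in high glucose replicate 3, and miR-29c-5p had 4 reads, in high glucose replicate 2. miR-29a-5p was at 0 in every library, although each miR-29a sequence was listed from 2 reads on.

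The summed 3p reads of the family followed miR-29a-3p. Their log2 fold change was -0.31 with an edgeR adjusted p of 0.0889, in a fit that called 64.1% of 295 arms. miR-29a made up 98.2%, 97.7% and 98.2% of these reads in high glucose, against 99.1%, 100% and 100% in low glucose. The shared class made up 1.61% ± 0.242 in high glucose and 0.288% ± 0.499 in low glucose (mean ± SD, n = 3 per group). Both shares separated the groups, with an exact two-sided permutation p of 0.1, the smallest that 3 against 3 libraries allow, and 0.133 adjusted over 4 member shares. After thinning to equal depth the exact permutation p was 0.4 for both.

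The 5′ start of the reads differed far more than their total. In high glucose 57.5%, 61.6% and 60.7% of the family's 3p reads began 1 base upstream of the annotated start, against 25.4%, 23.4% and 26.4% in low glucose. The lowest high glucose library was thus far above the highest low glucose one. Reads with the annotated start made up 42.2%, 38.3% and 39.3% in high glucose, against 74.4%, 76.6% and 73.1% in low glucose. The upstream share averaged 60.0% ± 2.14 in high glucose and 25.1% ± 1.55 in low glucose (mean ± SD, n = 3 per group), with an exact two-sided permutation p of 0.1, again the smallest possible, and 0.167 adjusted over 10 read class shares. Counting error was small beside this gap. For miR-29a-3p alone, the exact binomial 95% interval ran from 57.4% to 59.9% in high glucose replicate 1, the lowest of its group, and from 23.5% to 29.5% in low glucose replicate 3, the highest of its group. Reads carry no molecular identifiers here, so these intervals cover counting error only. At equal depth the upstream shares were 60.1% in high glucose and 25.0% in low glucose.

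miR-29a-3p carried this shift. It had 3491, 5199 and 4261 upstream reads in high glucose libraries, against 294, 264 and 231 in low glucose libraries. Reads with the annotated start numbered 2449, 3055 and 2627 in high glucose, against 850, 866 and 640 in low glucose. There were 1.43, 1.70 and 1.62 upstream reads for each annotated one in high glucose, and 0.346, 0.305 and 0.361 in low glucose. The more frequent start was therefore a different one in each group. Where each start of each arm was fitted as its own row, the upstream start of miR-29a-3p was higher by 0.85 on the log2 scale (standard error 0.18, edgeR adjusted p = 0.00565). The annotated start was lower, with a log2 fold change of -1.38 (standard error 0.17, edgeR adjusted p = 0.00042). Both starts were called, where 32.8% of the 472 rows were called higher and 19.7% lower. Upper quartile scaling gave 0.86 and -1.37. The upstream start had means of 3674 CPM in high glucose and 2042 in low glucose, and the annotated start had 2324 in high glucose and 6058 in low glucose.

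A test of unequal change among the starts of 1 arm, which does not depend on scaling between libraries in the way a level does, was run across all arms with edgeR's diffSpliceDGE. Of 106 arms with more than 1 tested start, 13 were called, or 12.3%. miR-29a-3p was among them with an adjusted p of 5.43e-05, and its raw p ranked 2 of the 106. Without each library in turn its diffSpliceDGE adjusted p stayed between 6.6e-05 and 0.00299.

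**Figure D2:**
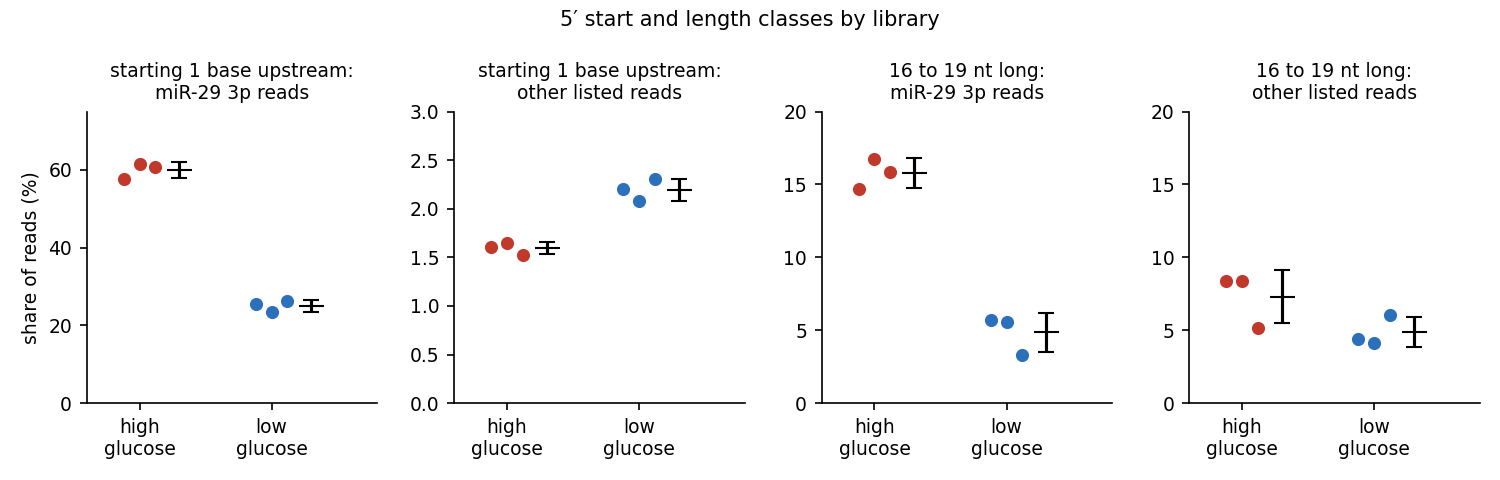
Shares of reads in percent on the y axis, by library, for miR-29 3p reads and for all other listed reads, with high glucose left and low glucose right in each panel and a separate scale per panel. Points are libraries and bars are mean ± SD of 3 libraries. The first panel shows 57.5% to 61.6% in high glucose and 23.4% to 26.4% in low glucose. The second shows the order of the groups turned round in the other reads pooled over arms.

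In the pooled reads outside the family the difference ran the other way, while single arms went in both directions. Starts of each arm were counted here from its commonest start over all libraries. For miR-29a-3p this was the annotated base, which was not checked for other arms. The share of other reads that began 1 base upstream was 1.60%, 1.65% and 1.52% in high glucose, against 2.20%, 2.08% and 2.31% in low glucose. Here the high glucose libraries were the lower ones (exact permutation p = 0.1, the smallest possible). This pooled share also depends on which arms are abundant in each group, so it does not describe the starts of single arms. Of 58 annotated arms with at least 100 reads in every library, miR-29a-3p included, all 3 high glucose libraries lay above all low glucose libraries in 13, or 22.4%. They lay below them in 3, or 5.17%. Several of the 13 were at 0% in low glucose with a small difference, such as miR-27a-3p at 0.328% and miR-128-3p at 0.301% in high glucose. Rare sequences go unlisted more readily in the shallower low glucose libraries, which favours such arms. Neither these counts nor the median below were repeated at equal depth, so they do not show a general shift among arms. miR-29a-3p had the greatest difference of the 58, at 36.0 percentage points. miR-140-3p, an arm known in cartilage, followed at 12.7 points, with 38.9% in high glucose and 26.3% in low glucose. miR-101a-3p, a repressor of the histone methyltransferase Ezh2, was next at 6.79 points, with 49.5% in high glucose and 42.7% in low glucose. The lowest value was -7.97 points for miR-322-3p, and the median of the 58 arms was 0.115 points.

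**Figure D3:**
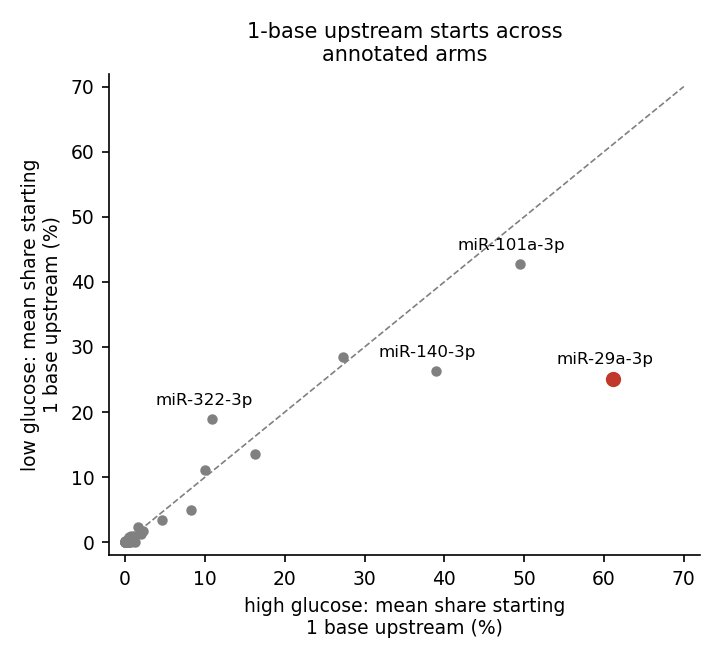
Mean share of reads that began 1 base upstream of the arm's commonest start, in percent, for 58 annotated arms, with high glucose on the x axis and low glucose on the y axis. For miR-29a-3p the commonest start is the annotated one. Each point is an arm, the red point is miR-29a-3p and the dashed line marks equal shares. miR-29a-3p lies farthest from that line, at 61.1% in high glucose and 25.1% in low glucose.

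Single sequences differed by their start as well. In a fit across 1497 distinct sequences 34.9% were called higher and 17.3% lower in high glucose. Of 20 tested miR-29 sequences 6 were higher and 2 lower, so that 8 of 20 passed where 52.2% of all sequences did. Of the 9 that began upstream 5 were higher and 0 lower, and of the 11 that began at the annotated base 1 was higher and 2 were lower. Among the higher ones, the upstream 16 nt form was listed at 0 in low glucose. The annotated form of 16 nt had 2, 0 and 3 reads there. Both passed the filter only through high glucose and could hardly come out lower. An upstream form ending in C, given below, also passed through high glucose, with few reads in low glucose. The counts of higher sequences are therefore no test of the starts. With upper quartile scaling 5 of the 20 were higher and 4 lower, beside 30.1% and 22.9% of all sequences. The upstream 22 nt form cUAGCACCaucugaaaucgguu had 2312, 3706 and 2896 reads in high glucose, against 194, 172 and 159 in low glucose. Its log2 fold change was 1.49 (standard error 0.22, edgeR adjusted p = 0.000408). The annotated 22 nt arm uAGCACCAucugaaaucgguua had 1090, 924 and 806 reads in high glucose, against 464, 425 and 344 in low glucose. It was lower, with a log2 fold change of -1.36 (standard error 0.25, edgeR adjusted p = 0.00179). The annotated form of 21 nt was the other one that fell, at -1.09 (edgeR adjusted p = 0.00146), with 490, 715 and 767 reads in high glucose and 235, 262 and 198 in low glucose.

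The upstream 24 nt form, which runs 1 base past the annotated 3′ end, had 366, 378 and 323 reads in high glucose, against 34, 25 and 22 in low glucose. Its log2 fold change was 1.15 (edgeR adjusted p = 0.00922), but 0.74 with upper quartile scaling, where edgeR no longer called it (adjusted p = 0.0599). An upstream 22 nt form whose last base was C in place of U was higher by 1.97 on the log2 scale (edgeR adjusted p = 0.0157), with 56, 106 and 75 reads in high glucose and 2, 5 and 3 in low glucose. Without low glucose replicate 1 its edgeR adjusted p was 0.0709. It passed the filter through its high glucose libraries, and its few low glucose reads lay near the listing minimum, so its fold is uncertain. The upstream 16 nt form had 57, 62 and 31 reads in high glucose and was listed at 0 in low glucose.

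**Figure D4:**
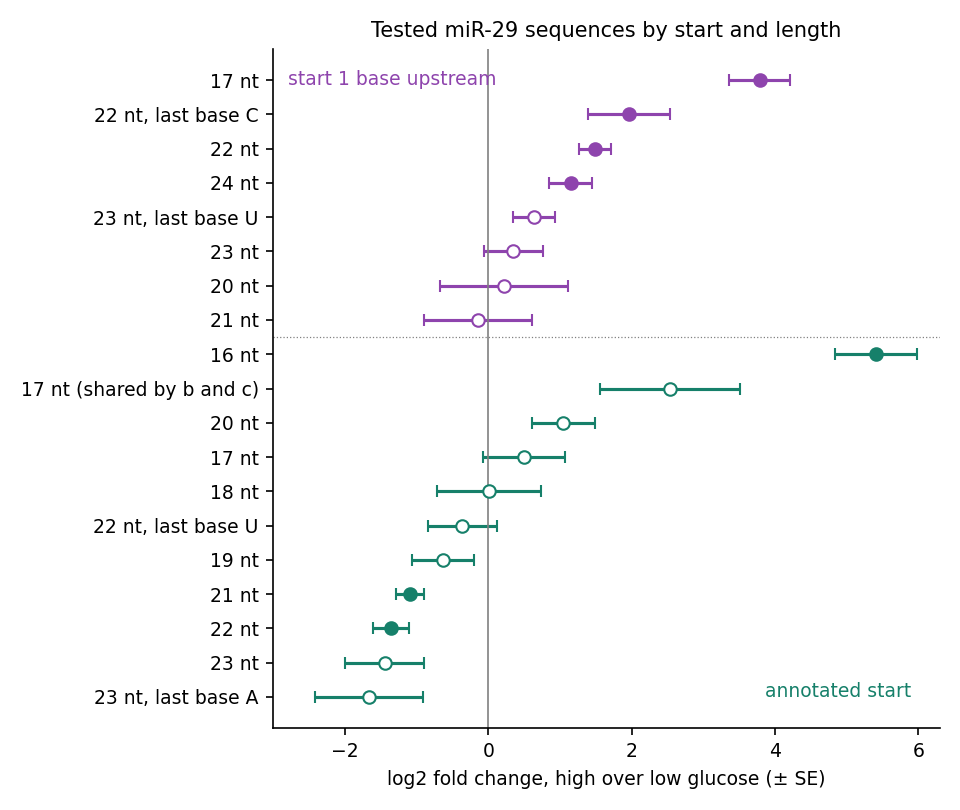
Log2 fold change of high over low glucose ± SE on the x axis for the tested miR-29 sequences that were listed in low glucose, named by length and, where it departs from the hairpin, by last base. Purple points began 1 base upstream and green points began at the annotated base; filled points had an edgeR adjusted p under 0.05. The filled purple points lie between 1.15 and 3.78, and the filled green points at -1.36, -1.09 and 5.41. The point at 5.41 rests on 2, 0 and 3 reads in low glucose and is no measure of the fold.

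Short reads also made up more of the family in high glucose. Reads of 16 to 19 nt were 14.7%, 16.7% and 15.9% of its 3p reads in high glucose, against 5.71%, 5.58% and 3.31% in low glucose, and the groups did not overlap. Their means were 15.8% ± 1.04 in high glucose and 4.87% ± 1.35 in low glucose (mean ± SD, n = 3 per group; exact two-sided permutation p = 0.1, the smallest possible). Outside the family short reads were 8.38%, 8.36% and 5.18% in high glucose, against 4.43%, 4.10% and 6.06% in low glucose, and these groups overlapped (exact permutation p = 0.2). In the diffSpliceDGE test of short against longer reads miR-29a-3p had an adjusted p of 8.91e-05 and a rank of 6 among 73 arms. That test called 26 of the 73, or 35.6%, so a shift in length was common among arms.

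In high glucose most of the short reads ended on 1 base. miR-29a-3p reads that stopped at hairpin base 69, which is 6 bases before the annotated end, numbered 523, 948 and 706 in high glucose, against 6, 3 and 6 in low glucose. They were 8.78%, 11.5% and 10.2% of miR-29a-3p reads in high glucose and 0.524%, 0.265% and 0.686% in low glucose. The annotated 16 nt form uAGCACCAucugaaau, which ends there, had 332, 570 and 417 reads in high glucose, against 2, 0 and 3 in low glucose. Its fitted log2 fold change was 5.41 (standard error 0.57, edgeR adjusted p = 6.66e-05). This form passed the filter only through high glucose and could hardly come out lower. With so few low glucose reads the value is no measure of the fold. The upstream 17 nt form cUAGCACCaucugaaau ends on the same base and had 187, 376 and 285 reads in high glucose, against 4, 3 and 3 in low glucose. It was higher by 3.78 on the log2 scale (standard error 0.43, edgeR adjusted p = 8.79e-05). Reads of 21 nt made up less in high glucose, at 9.55%, 9.64% and 13.0% of miR-29a-3p reads, against 22.2%, 24.5% and 23.9% in low glucose. So did reads of 23 nt, at 6.31%, 5.41% and 6.87% in high glucose, against 7.07%, 8.32% and 7.89% in low glucose. Reads of 24 nt were 6.28%, 4.73% and 4.69% in high glucose, against 2.97%, 2.39% and 2.51% in low glucose. At these 3 lengths the groups did not overlap. Reads of 22 nt, the most frequent length, were 60.0% ± 2.11 of miR-29a-3p in high glucose and 59.3% ± 2.30 in low glucose (mean ± SD, n = 3 per group).

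The upstream start was more frequent in high glucose at both lengths. Among miR-29a-3p reads of 20 nt or more, 62.5%, 67.5% and 66.5% began upstream in high glucose, against 26.6%, 24.3% and 27.0% in low glucose. Among the short ones 32.9%, 37.3% and 35.2% did in high glucose, against 7.14%, 7.94% and 10.3% in low glucose. The groups were apart in each length class. The start and the end were linked within each group. Upstream reads ended mostly 1 base before the annotated end, in 73.1% of cases in high glucose and 69.5% in low glucose. Annotated starts ended on the annotated base in 39.1% in high glucose and 56.1% in low glucose, and 1 base before it in 26.1% in high glucose and 30.6% in low glucose.

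**Figure D5:**
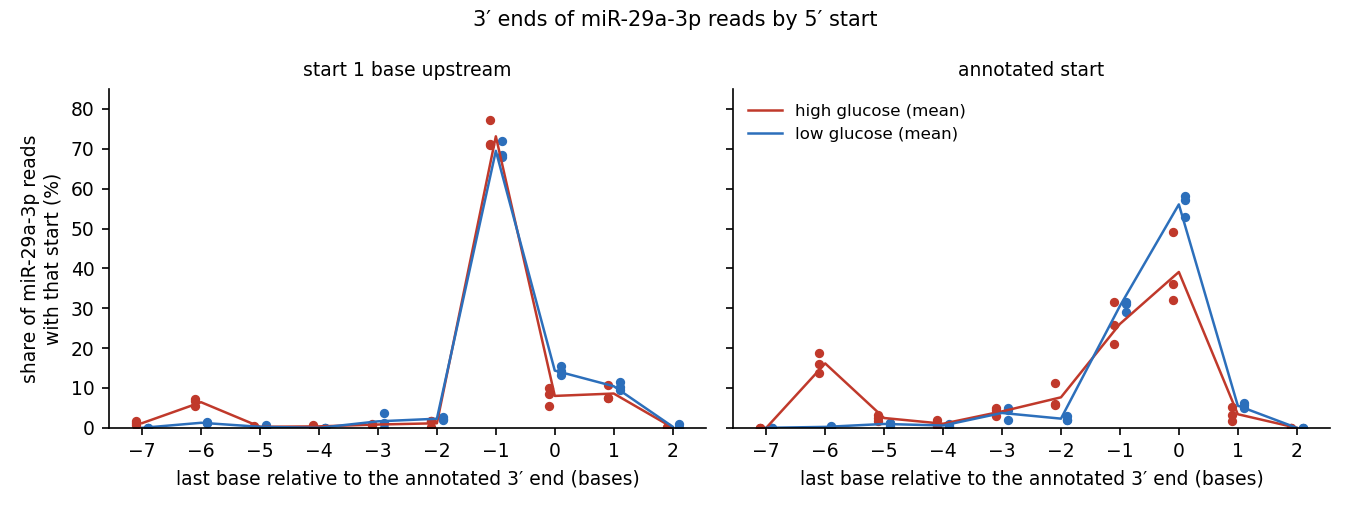
3′ ends of miR-29a-3p reads as a share of the reads with the same start, in percent, against the last base relative to the annotated end, for the upstream start (left) and the annotated start (right). Points are libraries, lines are group means, red is high glucose and blue is low glucose. The left panel peaks 1 base before the annotated end in both groups, and the small peak 6 bases before the annotated end reaches 16.2% in high glucose against 0.235% in low glucose for the annotated start.

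Bases that depart from the hairpin were few. A last base of U in place of the hairpin's own ended 4.89%, 2.80% and 5.54% of the family's 3p reads in high glucose, against 3.11%, 4.34% and 4.69% in low glucose, and the groups overlapped. Such tails are known to be added by terminal uridylyltransferases. Among upstream reads of miR-29a-3p alone the share was 5.42% ± 1.49 in high glucose and 9.54% ± 2.14 in low glucose (mean ± SD, n = 3 per group; exact permutation p = 0.1, the smallest possible). Among reads with the annotated start it was 3.04% ± 1.53 in high glucose and 2.22% ± 0.403 in low glucose, and these groups overlapped (exact permutation p = 0.4). A last base of A in place of the hairpin's own ended 1.14%, 1.22% and 0.413% of the family's 3p reads in high glucose, against 1.99%, 3.54% and 2.17% in low glucose. These groups did not overlap, but they did after thinning (exact permutation p = 0.2).

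Mismatches inside the read were in 2.65%, 3.34% and 2.24% of the family's 3p reads in high glucose, against 1.56%, 1.77% and 1.37% in low glucose. At equal depth both groups averaged 1.55%, so the gap was not seen there. With positions counted from 1 at the 5′ end of the miR-29a hairpin and the hairpin's base given first, the most frequent was G72T, with 57, 65 and 48 reads in high glucose and 0, 0 and 2 in low glucose. C60T, which lies in the annotated seed, had 32, 61 and 24 reads in high glucose and 0 in each low glucose library. Changes of A to G, the kind that adenosine deaminases leave, were in 9, 19 and 6 reads in high glucose and 2 in each low glucose library, or 0.0871% to 0.23% of miR-29a-3p reads in high glucose and 0.175% to 0.229% in low glucose. These shares overlapped.

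Outside the family, the tested annotated arms whose log2 levels were most like those of miR-29a-3p over the 6 libraries were miR-672-5p, miR-184-3p and miR-370-3p, with Pearson correlations of 0.988, 0.949 and 0.946 among 195 arms. The 6 libraries fall into the treatment groups, so these values describe a shared difference between groups, with no test. miR-672-5p had means of 131 CPM in high glucose and 281 in low glucose, and miR-184-3p, an arm known from cornea and lens, had 473 in high glucose and 3901 in low glucose. No such arm was sought for miR-29c-3p, which was not tested.

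Other miRNAs known for promoting or repressing matrix genes or fibrosis moved in both directions. Of 27 on a list taken from the literature, 24 were listed and 17 tested, with 4 higher and 5 lower, beside 40.9% and 22.6% of all arms. Their median log2 fold change was -0.30, beside 0.67 over all arms. With upper quartile scaling 4 were higher and 9 lower, beside 30.7% and 31.4% of all arms, with a median of -0.90 beside 0.10. miR-21-5p, a promoter of fibrosis in heart and kidney and the most abundant of them, averaged 173425 ± 34966 CPM in high glucose and 420772 ± 51141 in low glucose (mean ± SD, n = 3 per group). It was lower by edgeR's test (log2 fold change -1.28, adjusted p = 0.000972). miR-30a-5p and miR-26a-5p, next in abundance, were not called with TMM scaling, at 0.41 and -0.30 (edgeR adjusted p = 0.0507 and 0.112). The widest differences were those of miR-328a-3p at 2.62, miR-218a-5p at -2.31 and let-7d-5p, a let-7 member that targets Hmga2, at 1.94 on the log2 scale. miR-199a-3p, miR-101a-3p and miR-181a-5p were the other lower ones, and miR-192-5p and miR-30c-5p the other higher ones.

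Of 15 miRNAs known in Schwann cells, 10 were listed and 8 tested, with 3 higher and 2 lower, beside 40.9% higher and 22.6% lower over all arms. The higher ones were miR-221-3p, miR-222-3p and miR-30c-5p, and the lower ones were both arms of miR-140. With upper quartile scaling 2 were higher and 4 lower, beside 30.7% and 31.4% of all arms. miR-338-3p and miR-138-5p, which are known for promoting the maturation of glia, were at 0 in all 6 libraries.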

How the data were processed

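Small RNA of 6 libraries was compared, 3 of high and 3 of low glucose, with groups and replicate numbers from the sample titles. The deposited values are raw counts of reads per distinct sequence and hairpin, per the file headers. Novoalign 3.02.12 and cutadapt 1.9.3 appear in the submitters' processing notes, with no roles given. Neither genome build nor hairpin release is given in the sources used here. Tested on the deposited counts, the reads of a sequence are divided evenly over the hairpin names it is listed under, within 0.5 reads, and no listed count is under 2. Sequences are 16 to 40 nt long.

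Counts were summed per mature arm, with a read whose centre lay before the hairpin's midpoint taken as 5p and any other as 3p, and a miR-29 sequence listed under several members formed a row of its own. Python 3.11.15, pandas 2.3.3, NumPy 2.4.6, SciPy 1.17.1 and matplotlib 3.10.9 were used, and, in R 4.3.3, DESeq2 1.42.0, edgeR 4.0.16 and limma 3.58.1. Differences were tested with the quasi-likelihood test of edgeR after TMM scaling, with rows kept by filterByExpr (minimum count 10), dispersions estimated robustly and a Benjamini-Hochberg threshold of 0.05 over all 296 tested of 933 rows. Standard errors were derived from each log2 fold change and its F statistic. Log2 CPM used a prior count of 2. For shares, exact permutation tests (two-sided) were used. Thinning drew sequences' reads once to 114615 per library and applied the listing minimums again. Fits by start and by sequence and the usage tests were added after the data were seen. Scripts were tested on simulated counts. Alternatives were other scalings, filters, DESeq2, a replicate block, thinned reads, exact alignments, the most abundant sequence alone, shared sequences counted as deposited, and each library left out in turn.

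The members, lists and tests were chosen with earlier results of these data known. Named miRNAs were all family arms, the 3 most correlated arms, and on the matrix list the 3 most abundant and the 3 most changed with counts in every library. The other called members of both lists, and the other arms named for their upstream shares or markers, were chosen after their values were seen.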

Additional observations from a re-analysis of the deposited data

How the results depend on the processing

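The level of miR-29a-3p kept its sign under every alternative but 1 and crossed the threshold under several. Its log2 fold change was called lower with DESeq2 (-0.47), with DESeq2's size factors (-0.47), library totals (-0.46), upper quartile scaling (-0.93), thinned reads (-0.65) and its most abundant sequence by mean share of the library (-1.56). It reversed to 1.13, and was called higher (edgeR adjusted p = 0.00144), when only the sequence with the most total reads was counted, since that sequence is the upstream form. Leaving out 1 library gave -0.47 to -0.21, called without high glucose replicate 2. The family sum was likewise called with DESeq2 (-0.45), its size factors (-0.45), library totals (-0.44), upper quartile scaling (-0.90) and thinned reads (-0.63), with -0.45 to -0.19 without 1 library, called without high glucose replicate 2 (-0.45, edgeR adjusted p = 0.026). The shared class was called without a filter (2.16, edgeR adjusted p = 0.00607) and gave 1.52 to 9.24 without 1 library. The last value, without low glucose replicate 1, was called (edgeR adjusted p = 0.00448) but is fitted against a group at 0 and is no measure of the fold. Thinned, 125 arms were called in place of 188, 62 of them higher and 63 lower, from fewer tested arms. Mean levels in high glucose were 84.5 CPM for miR-29b-3p and 42.1 for miR-29c-3p when shared sequences were counted under each member as deposited, which made miR-29b-3p called (log2 fold change 2.51, edgeR adjusted p = 0.0402), and 0 for miR-29b-3p when thinned. High minus low glucose shares turned round for internal mismatches when thinned (-0.00035 points), for a last base of U (-0.20 to 1.17 points) and for downstream starts (-0.20 to 0.025 points) without 1 library. The fits by start and both usage tests kept their side of the threshold, and the shares of upstream, annotated and short reads their direction, under every alternative run. The upstream form ending in C was also not called with library totals (1.37), nor was the 24 nt form with library totals (0.55) or without low glucose replicate 2 (0.98). Replicate numbers were not taken to pair libraries, because nothing in the labels says that a number marks a shared culture or day. Libraries with 1 number also did not deviate together (correlations 0.050, 0.0030 and -0.030). With the replicate number as a block 162 arms were called and miR-29a-3p was at -0.34 (edgeR adjusted p = 0.143). miR-29b-3p, miR-29c-3p and the 5p arms had no test in the main fit. miR-29b-3p was called with a minimum mean of 10 CPM (edgeR adjusted p = 0.0348) and without low glucose replicate 1 (0.0488). It was not called without low glucose replicate 2 (edgeR adjusted p = 0.0591) or 3 (0.0526). Nor was it called without a filter (edgeR adjusted p = 0.0849), where the others had 0.511 to 0.572. At 0 in low glucose, miR-29b-3p could only come out higher, so its calls are no support for a difference. Depth in low glucose limits what can be said of these rare arms.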
